A study of Mus musculus with 9 samples.

Results

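The messenger RNAs of 43 genes that move calcium across the membranes of a cell were measured in cultured mouse embryonic cortical neurons. The genes were chosen by symbol, with earlier results of these data known, and all 43 were found among the 40773 gene symbols of the count table. They comprise 8 pore-forming alpha1 subunits of voltage-gated calcium channels and 13 auxiliary subunits (4 beta, 3 alpha2delta and 6 gamma). The others are 6 release channels of the endoplasmic reticulum, 6 calcium pumps, 5 genes of store-operated entry, the mitochondrial uniporter pore Mcu and 4 TRPC cation channels. Of the 43, 42 had enough counts to be tested. Atp2a3, a calcium pump of the endoplasmic reticulum used mainly outside neurons, stood between 0 and 0.145 CPM (counts scaled by library size) and was not tested.

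Cortical neurons from embryonic mouse brain were left to settle overnight and then received 1 of 3 preparations of peptide amphiphiles, molecules in which a peptide is joined to a fatty tail so that they self-assemble in water. The PA group received a non-charged peptide amphiphile, the Na+ ICN group an ion-charged nanostructure with sodium, and the K+ ICN group one with potassium. All 3 groups received 80 µl of material at 200 µM (from a stock of 5 mM), had 50% of their medium renewed at 48 h, and gave RNA at 72 h. No untreated culture was analysed here, so every value is relative to cells that carry a peptide amphiphile too. Each group had 3 biological replicates. Whether these came from separate animals or dissections, and the age of the embryos, the labels do not state, so p-values measure only the spread between these cultures.

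Voltage-gated calcium channels open when the membrane depolarises: L-type (Cav1) channels couple activity to gene expression, Cav2 channels trigger transmitter release at synapses, and T-type (Cav3) channels open near the resting potential. Ryanodine receptors and IP3 receptors release calcium from the endoplasmic reticulum, SERCA pumps return it there, and PMCA pumps drive it out through the plasma membrane. When the store empties, STIM proteins open ORAI channels, while TRPC channels admit calcium and sodium downstream of receptors coupled to phospholipase C, and the uniporter carries calcium into mitochondria.

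Library totals ranged from 17924988 to 22906950 counts. The summed level of 8 neuronal marker genes was 5114 to 5149 CPM in PA, 4858 to 5055 with Na+ ICN and 4492 to 4581 with K+ ICN, so genes of the labelled cell type were abundant in every library. By the gene test, Tubb3, Map2 and Syt1 were lower with K+ ICN than in PA, and Syn1 was higher. With Na+ ICN, Syt1 alone was lower. Snap25, Rbfox3, Nefl and Nefm passed against PA with neither nanostructure. Markers of other cell types were detected too, and their levels differed between groups. The sum of 10 astrocyte and radial glia markers was 1024 to 1051 CPM in PA, 1147 to 1218 with Na+ ICN and 1112 to 1133 with K+ ICN, with 7 and 8 of the 10 higher than in PA by the gene test. The 8 GABAergic neuron markers summed to 776 to 795, 679 to 698 and 747 to 768 CPM in the same order. Of these, Gad1, Gad2, Slc32a1 and Npy were lower with Na+ ICN than in PA, and Gad2 and Lhx6 with K+ ICN. Dlx1, Dlx2 and Sst passed against PA with neither. The 9 endothelial and mural markers summed to 58.1 to 69, 97.8 to 109 and 113 to 140 CPM, and the 7 fibroblast markers to 23.8 to 28.7, 36.3 to 37.7 and 42 to 43.8 CPM. The contractile genes Acta2 and Tagln held most of the endothelial and mural sum. Among its endothelial genes, Cldn5 and Cdh5 were at 0 in every PA library, Pecam1 had means of 0.942, 0.563 and 0.707 CPM and did not pass, and Kdr rose with K+ ICN (log2 0.58, SE 0.151, edgeR adjusted p = 0.00729). The part of these cells in the results that follow was not tested. In such bulk samples, fewer cells of a type and less RNA per cell cannot be told apart.

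Calcium channel and pump genes differed in both directions, and most differences were small. Against PA, 14 of the 42 tested members changed with Na+ ICN, 4 higher and 10 lower, where 10.9% of all tested genes changed, 5.63% higher and 5.22% lower. The count depended on single libraries: it was 9 without PA replicate 2 and 9 without Na+ ICN replicate 2, in both cases 2 higher and 7 lower. With K+ ICN, 19 members changed, 5 higher and 14 lower, where 15.8% of all tested genes changed, 8.15% higher and 7.68% lower. Upper-quartile scaling gave the same total for K+ ICN but a split of 8 higher and 11 lower. Without PA replicate 1 the K+ ICN split was 2 higher and 11 lower, and without K+ ICN replicate 3 it was 4 higher and 9 lower. Between the nanostructures, 12 members changed, 7 higher and 5 lower in K+ than in Na+ ICN, where 6.58% of all tested genes changed, 3.33% higher and 3.25% lower. Which direction held more members depended on single libraries: the split was 4 higher and 7 lower without Na+ ICN replicate 2, 3 higher and 5 lower without K+ ICN replicate 3, and 4 each way without K+ ICN replicate 2. The share of members that changed was thus 33.3%, 45.2% and 28.6% in the 3 comparisons. Because the members were chosen with earlier results of these data known, these shares describe the list and do not test an excess over all genes. Values with ± are means and SD over the 3 libraries of a group, and a change means an adjusted p under 0.05 in edgeR's quasi-likelihood test, with Benjamini-Hochberg adjustment over 15183 genes. The median log2 fold change of the members was -0.07 with Na+ ICN and -0.09 with K+ ICN, against 0.00 for all tested genes in both. The comparisons share libraries with each other, so their lists of changed members are not independent, and the values of each are given side by side.

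**Figure D1:**
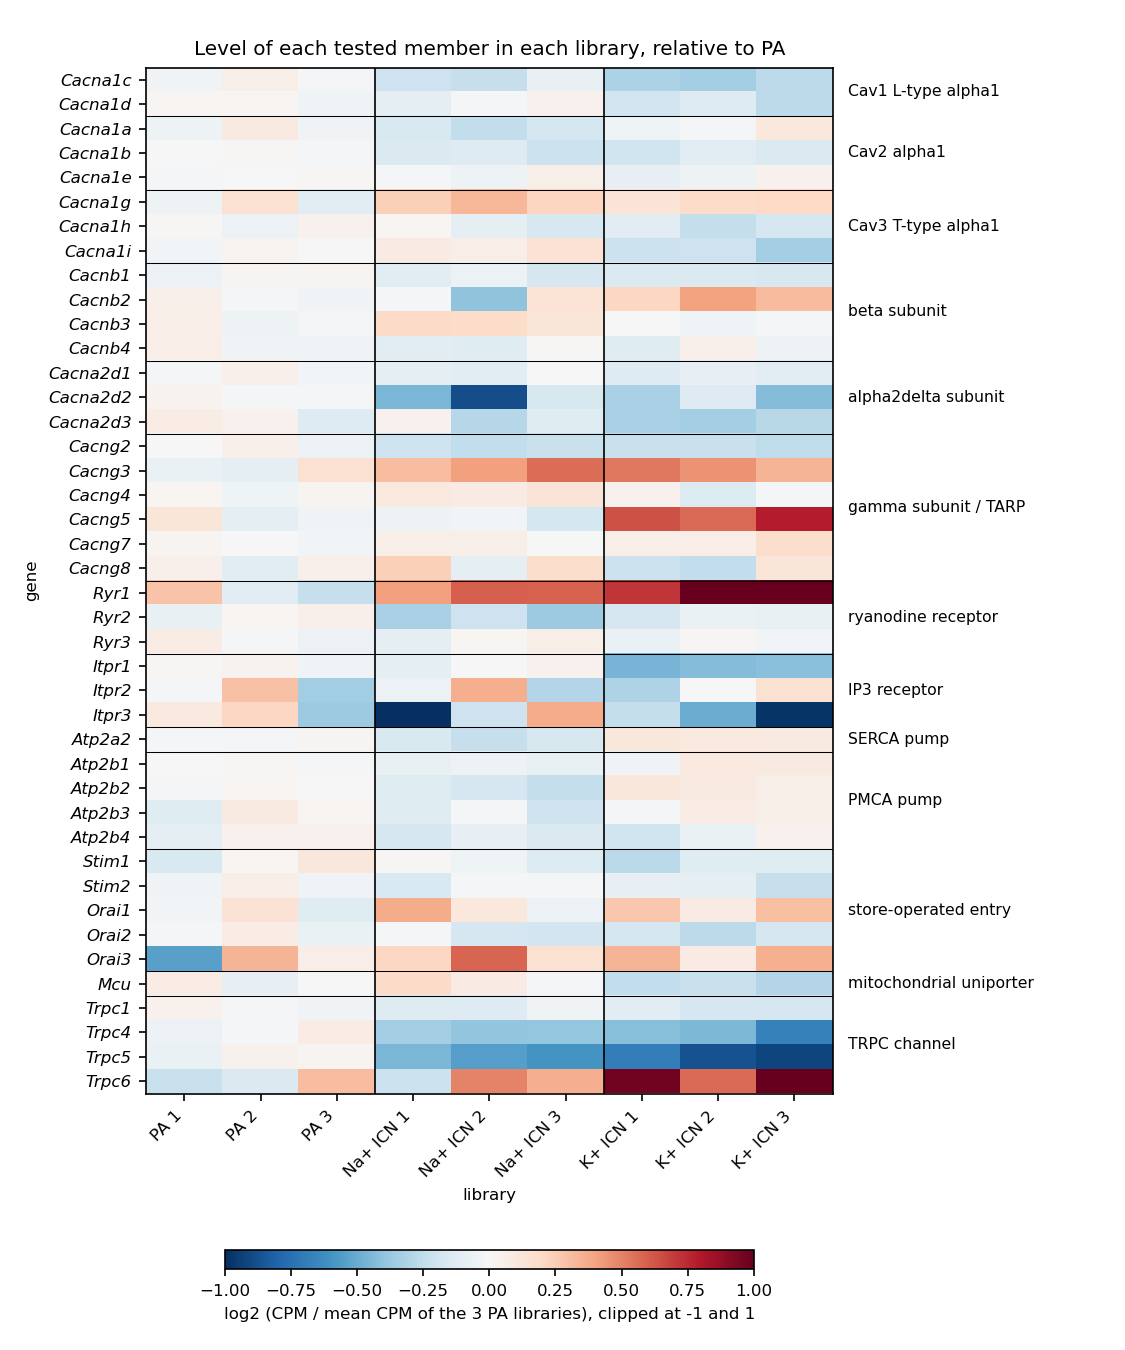
Level of each of the 42 tested members (rows, grouped by role) in each of the 9 libraries (columns), as log2 of its CPM over the mean of the 3 PA libraries; red is higher, blue lower, and colours are clipped at -1 and 1. Ryr1, Trpc6 and Cacng5 are red with K+ ICN, and Trpc5, Itpr3, Trpc4 and Itpr1 are blue there; of these, Trpc6 and Itpr3 are barely detected and did not pass the test. Atp2a2 is pale blue with Na+ ICN and pale red with K+ ICN.

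The share of genes called differed with level and gene length. The members are well expressed, with a median of 45.5 CPM. Among all genes with a mean of at least 10 CPM, 14.5%, 20.8% and 9.61% were called in the 3 comparisons, in the order Na+ ICN against PA, K+ ICN against PA and K+ against Na+ ICN. The 37 members at that level counted 14, 19 and 12 calls. Members are also long genes, with a median span of 122.6 kb and 26 of 43 at or above 100 kb. Among genes of at least 100 kb and 10 CPM, 14.2% were lower and 6.77% higher with Na+ ICN, and 20.6% lower and 11.4% higher with K+ ICN. The 24 long members at that level counted 9 lower and 1 higher with Na+ ICN, and 11 lower and 1 higher with K+ ICN. Among shorter genes at that level, 6.02% were lower and 7.16% higher with Na+ ICN, and 9.32% lower and 9.12% higher with K+ ICN. The 13 shorter members there counted 1 lower and 3 higher with Na+ ICN, and 3 lower and 4 higher with K+ ICN. Where libraries of compared groups are described as not overlapping, the same held for 26.7%, 32% and 22% of all tested genes in the 3 comparisons. These shares are for single genes and pairs of groups. No such share was computed for all 3 groups lying apart at once, or for sums over genes. The part of gene length in the members' values was not tested.

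Among the pore-forming subunits, the L-type gene Cacna1c and the N-type gene Cacna1b fell with both nanostructures, while the T-type gene Cacna1i was lowest with K+ ICN. Cacna1c (Cav1.2, chr6:118587240-119196418, minus strand, GRCm38) is the main neuronal L-type pore. It stood at 118, 126 and 119 CPM in the PA libraries, 105, 103 and 115 CPM with Na+ ICN and 97.1, 95.5 and 101 CPM with K+ ICN. All Na+ ICN libraries lay below all PA libraries, and all K+ ICN libraries below both. With K+ ICN it fell to 0.81 of PA (log2 fold change of -0.30, SE 0.045, edgeR adjusted p = 1.21e-06) and to 0.89 with Na+ ICN (log2 -0.17, SE 0.0451, edgeR adjusted p = 0.00917). The Na+ ICN call was lost without PA replicate 2 (edgeR adjusted p = 0.0731) and without Na+ ICN replicate 2 (edgeR adjusted p = 0.088). Between the nanostructures Cacna1c did not pass (log2 -0.14, SE 0.0455, edgeR adjusted p = 0.0624). Cacna1d, the Cav1.3 pore that opens at lower voltages, fell with K+ ICN (52 ± 1.31 CPM in PA, 45.5 ± 2.05 CPM with K+ ICN, SD, n = 3, edgeR adjusted p = 0.0296). This call was lost without PA replicate 1 or 2 or K+ ICN replicate 1 or 3 (edgeR adjusted p = 0.0919, 0.0866, 0.0663 and 0.129) and with upper-quartile scaling (edgeR adjusted p = 0.0541).

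Cacna1b (Cav2.2, the N-type pore of presynaptic terminals, chr2:24603887-24763152, minus strand) stood at 236, 237 and 233 CPM in PA, 213, 216 and 203 CPM with Na+ ICN and 205, 219 and 213 CPM with K+ ICN. The PA libraries lay above all 6 others, and the nanostructure groups overlapped. It fell with a log2 fold change of -0.16 for Na+ ICN (SE 0.0347, edgeR adjusted p = 9.72e-04) and -0.15 for K+ ICN (SE 0.0345, edgeR adjusted p = 0.00125), and the 95% interval of the K+ minus Na+ difference was -0.06 to 0.08. Cacna1a, the P/Q-type pore that also serves transmitter release, was lower with Na+ ICN alone. It had 76.1 ± 4.18 CPM in PA, 66.7 ± 2.15 CPM with Na+ ICN and 77 ± 4.31 CPM with K+ ICN (SD, n = 3). Both the fall against PA (log2 -0.19, SE 0.0542, edgeR adjusted p = 0.0165) and the K+ against Na+ difference (log2 0.21, SE 0.054, edgeR adjusted p = 0.00996) depended on single libraries. Cacna1a did not pass against PA without PA replicate 2 or Na+ ICN replicate 2 (edgeR adjusted p = 0.136 and 0.095), nor between nanostructures without Na+ ICN replicate 2 or K+ ICN replicate 3 (edgeR adjusted p = 0.0763 and 0.139). Cacna1e, the R-type pore, had 152 ± 1.25, 152 ± 5.87 and 149 ± 6.93 CPM, and the intervals of its log2 fold changes lay within -0.11 and 0.08 in the 3 comparisons.

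T-type genes did not move together. Cacna1i (Cav3.3, chr15:80287238-80398279, plus strand) stood at 39.9, 41.6 and 40.8 CPM in PA, 43.2, 42.6 and 45.1 CPM with Na+ ICN and 35.1, 35.3 and 32.1 CPM with K+ ICN. The K+ ICN libraries were the lowest and the Na+ ICN libraries the highest, with no overlap. It was lower in K+ than in Na+ ICN (log2 -0.35, SE 0.0689, edgeR adjusted p = 3.15e-04) and fell against PA with K+ ICN (log2 -0.25, SE 0.0689, edgeR adjusted p = 0.00702, and 0.0592 without K+ ICN replicate 3). Cacna1h (Cav3.2) fell with K+ ICN from 101 ± 3.71 to 89.7 ± 3.95 CPM (edgeR adjusted p = 0.00834), a call lost without PA replicate 3 or K+ ICN replicate 2 (edgeR adjusted p = 0.0709 and 0.0788). Cacna1g (Cav3.1) instead rose with Na+ ICN, from 53.7 ± 5.33 to 64.3 ± 2.68 CPM (log2 0.26, SE 0.0617, edgeR adjusted p = 0.00277). With K+ ICN, Cacna1g had 60.4 ± 1.45 CPM and passed narrowly (edgeR adjusted p = 0.047), with libraries that overlapped PA. That call was lost in 8 of 17 alternatives, among them DESeq2 (adjusted p = 0.0746), limma voom (adjusted p = 0.05) and edgeR with DESeq2 size factors (adjusted p = 0.0512). The others were the fits without PA replicate 1 or 3 or any 1 K+ ICN replicate (edgeR adjusted p = 0.18, 0.29, 0.0574, 0.123 and 0.158).

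**Figure D2:**
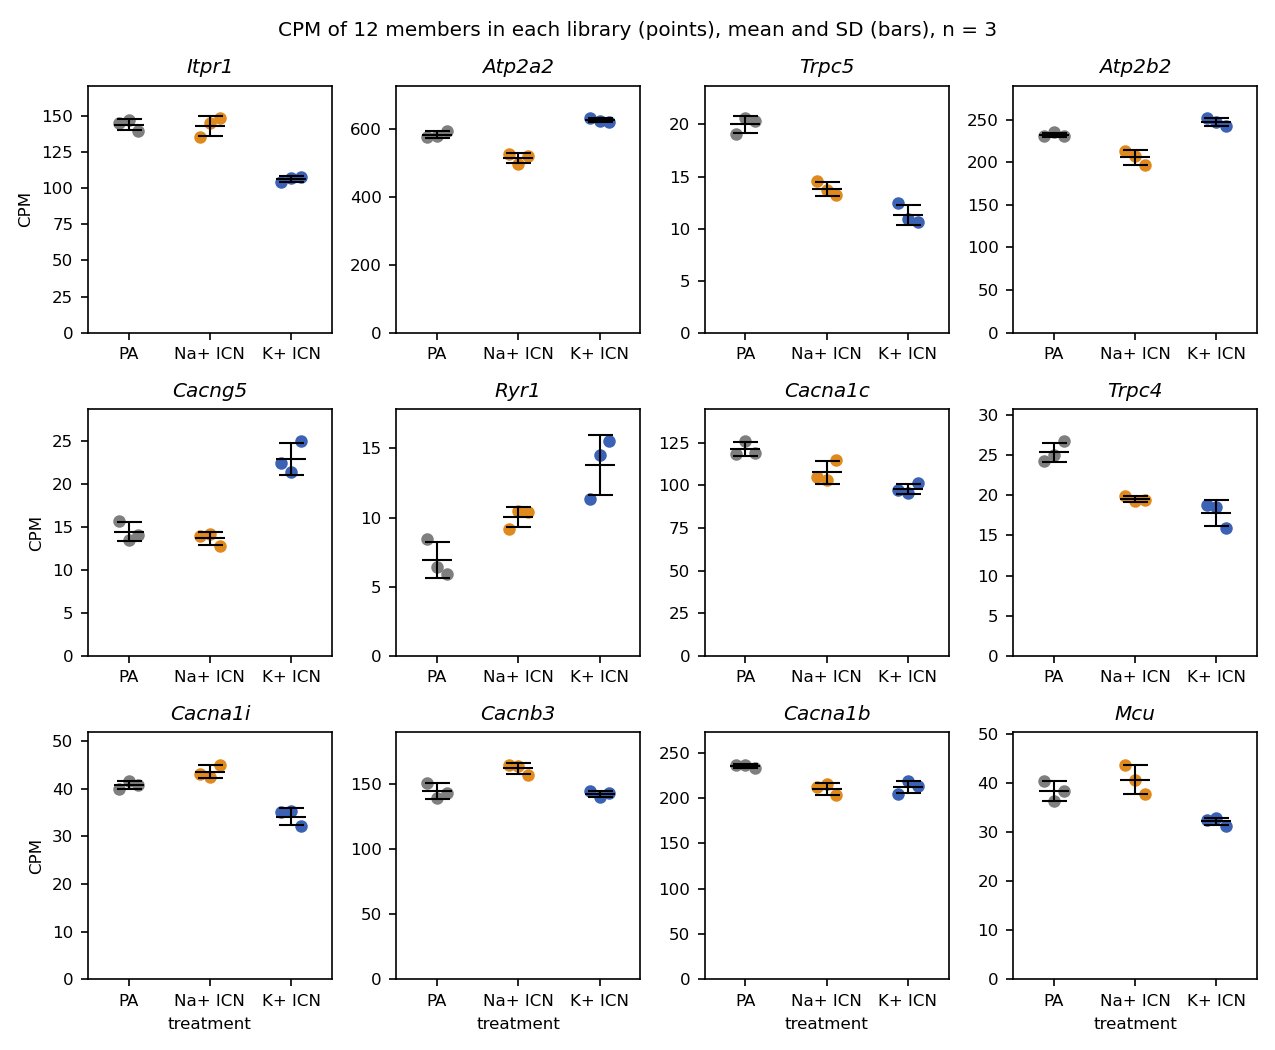
CPM of the 12 members with the smallest p in any comparison, 1 panel a gene, with a point for each library, a line for each group mean and the SD over 3 libraries. Itpr1, Cacna1i and Mcu are lowest with K+ ICN, Cacng5 is highest there, Atp2a2 and Atp2b2 are lowest with Na+ ICN, and Cacna1b, Trpc4 and Trpc5 are highest in PA.

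Auxiliary subunits set the trafficking and gating of the pore. Cacnb3, the beta subunit with the highest level per kilobase here (chr15:98630840-98644529, plus strand), stood at 151, 139 and 144 CPM in PA, 165, 165 and 157 CPM with Na+ ICN and 145, 141 and 143 CPM with K+ ICN. Na+ ICN libraries lay above the other 6, which overlapped. It rose with Na+ ICN (log2 0.17, SE 0.039, edgeR adjusted p = 0.00291) and was lower in K+ than in Na+ ICN (log2 -0.18, SE 0.0389, edgeR adjusted p = 9.90e-04). Cacnb1 fell with K+ ICN from 84.6 ± 2.74 to 76.2 ± 0.432 CPM (edgeR adjusted p = 0.0254). That call was lost without PA replicate 2 or 3 or any K+ ICN replicate (edgeR adjusted p = 0.087, 0.11, 0.0593, 0.058 and 0.0624) and with upper-quartile scaling (edgeR adjusted p = 0.0556). Cacnb2 was higher in K+ than in Na+ ICN (17.3 ± 1.18 against 13.2 ± 2.42 CPM, log2 0.38, SE 0.114, edgeR adjusted p = 0.0295). Its call was lost without Na+ ICN replicate 2 or K+ ICN replicate 2 or 3 (edgeR adjusted p = 0.282, 0.151 and 0.0948). Cacnb4 had 80.1 ± 3.13, 76.3 ± 3.89 and 78 ± 4.62 CPM and passed nowhere, and 16% of its exon bases are shared with a gene on the other strand.

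The alpha2delta subunits, which carry channels to the surface, each had means below PA in both nanostructure groups, and not all of these differences passed. Cacna2d3 fell with K+ ICN from 37.7 ± 2.75 to 30.3 ± 0.657 CPM (log2 -0.31, SE 0.0784, edgeR adjusted p = 0.00315), and its Na+ ICN libraries lay between 30.9 and 38.7 CPM, overlapping PA. Cacna2d2 had 16, 15.4 and 15.5 CPM in PA and 11.4, 8.47 and 14 CPM with Na+ ICN, a wide spread in the second group. It fell with Na+ ICN (log2 -0.46, SE 0.129, edgeR adjusted p = 0.0134), but not without PA replicate 1 or Na+ ICN replicate 2 (edgeR adjusted p = 0.0593 and 0.171). Cacna2d1, the most abundant of the 3 per kilobase, fell with K+ ICN from 281 ± 8.33 to 261 ± 4.26 CPM (log2 -0.10, SE 0.0337, edgeR adjusted p = 0.0282). This call was lost without PA replicate 2 or K+ ICN replicate 1 or 3 (edgeR adjusted p = 0.17, 0.112 and 0.0599) and with upper-quartile scaling (edgeR adjusted p = 0.0831).

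Most genes named as gamma subunits encode TARPs, which are auxiliary subunits of AMPA-type glutamate receptors. Cacng5 (chr11:107874605-107915055, minus strand) had the largest rise of the 6 with K+ ICN. It stood at 15.7, 13.6 and 14.1 CPM in PA, 14, 14.2 and 12.8 CPM with Na+ ICN and 22.5, 21.4 and 25 CPM with K+ ICN. PA and Na+ ICN libraries overlapped, and every K+ ICN library lay above all of them. Cacng5 rose 1.59-fold over PA (log2 0.66, SE 0.0997, edgeR adjusted p = 1.65e-06) and was 1.68-fold higher in K+ than in Na+ ICN (log2 0.75, SE 0.101, edgeR adjusted p = 3.91e-07). The 95% interval of its Na+ ICN against PA difference was -0.29 to 0.13 on the log2 scale. Its share of the summed level per kilobase of the 6 genes was 2.58% ± 0.16 in PA, 2.34% ± 0.142 with Na+ ICN and 4% ± 0.188 with K+ ICN.

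Its upstream promoter window is shown because the gene stands apart from its family in the K+ ICN libraries. This window is also 1 of 2 member windows with an AP-1 motif, the recognition letters of Fos and Jun dimers. Those 2 are among 47 member windows, and 4.79% of the windows of all tested genes hold these letters. The other is that of Mcu, which fell with K+ ICN. A second Cacng5 window, at chr11:107911313-107911612, holds neither the AP-1 letters nor the NFAT core. The part of these letters in the Cacng5 values was not tested. The window shown is the RefSeq window on GRCm38.p6 at chr11:107915006-107915305, minus strand. Capitals mark the AP-1 letters TGANTCA and the NFAT core GGAAA or its reverse.
Cacng5: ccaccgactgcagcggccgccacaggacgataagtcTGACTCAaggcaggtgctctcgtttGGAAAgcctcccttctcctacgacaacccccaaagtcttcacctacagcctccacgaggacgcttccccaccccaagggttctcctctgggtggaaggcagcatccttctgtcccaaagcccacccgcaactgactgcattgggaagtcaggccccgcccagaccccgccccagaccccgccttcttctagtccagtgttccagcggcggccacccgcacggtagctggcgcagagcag

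The other TARP genes differed in direction. Cacng2 (stargazin) fell with both nanostructures, from 59.8 ± 2.27 CPM in PA to 51.2 ± 0.681 CPM with Na+ ICN (log2 -0.22, SE 0.0591, edgeR adjusted p = 0.00885, and 0.0559 without PA replicate 2) and 50.9 ± 0.716 CPM with K+ ICN (log2 -0.23, SE 0.0587, edgeR adjusted p = 0.00337). Of its exon bases 5.86% are shared with a gene on the other strand. Cacng3 rose with both, from 8.19 ± 0.793 CPM to 11 ± 0.99 CPM with Na+ ICN (log2 0.43, SE 0.133, edgeR adjusted p = 0.0285) and 11.1 ± 0.73 CPM with K+ ICN (log2 0.44, SE 0.132, edgeR adjusted p = 0.0162). The Na+ ICN call of Cacng3 was lost without PA replicate 1 or 2 or Na+ ICN replicate 2 or 3 (edgeR adjusted p = 0.102, 0.109, 0.0652 and 0.139). Its K+ ICN call was lost without PA replicate 1 or 2 or K+ ICN replicate 1 (edgeR adjusted p = 0.0687, 0.0737 and 0.0761). Cacng4, the most abundant gamma gene per kilobase, was lower in K+ than in Na+ ICN (241 ± 15.4 against 266 ± 4.08 CPM, log2 -0.14, SE 0.0361, edgeR adjusted p = 0.00851), a call lost without K+ ICN replicate 2 (edgeR adjusted p = 0.191). Cacng7 and Cacng8 passed nowhere, with log2 fold changes between -0.22 and 0.11.

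Among release channels, the IP3 receptor Itpr1 fell with K+ ICN and the ryanodine receptor Ryr1 rose. Itpr1 (chr6:108213096-108551109, plus strand), the main neuronal IP3 receptor, stood at 145, 147 and 139 CPM in PA, 135, 145 and 148 CPM with Na+ ICN and 104, 107 and 108 CPM with K+ ICN. The K+ ICN libraries lay well below the other 6, and those overlapped. It fell to 0.738 of its mean in PA (log2 fold change -0.44, SE 0.0413, edgeR adjusted p = 2.10e-11) and was 0.744 of that with Na+ ICN (log2 -0.43, SE 0.0414, edgeR adjusted p = 1.21e-10). Both calls were kept in all 17 alternatives. The 95% interval of the Na+ ICN against PA difference was -0.09 to 0.07. Itpr1 had the smallest p of all members. Itpr2 and Itpr3 stood at 3.63 to 5.94 CPM and 0.821 to 2.84 CPM over all libraries, and neither passed in any comparison.

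Ryr1 (chr7:29003344-29125179, minus strand) is the ryanodine receptor best known from skeletal muscle. It stood at 8.44, 6.46 and 5.9 CPM in PA, 9.19, 10.5 and 10.4 CPM with Na+ ICN and 11.4, 14.5 and 15.5 CPM with K+ ICN. The groups were ordered PA, Na+ ICN, K+ ICN with no overlap. Its level rose 1.99-fold with K+ ICN (log2 0.996, SE 0.142, edgeR adjusted p = 5.95e-07), the largest fold change among members that passed, and 1.45-fold with Na+ ICN (log2 0.54, SE 0.146, edgeR adjusted p = 0.0107). The K+ ICN rise was kept in all 17 alternatives. The Na+ ICN call was lost without PA replicate 2 or 3 or Na+ ICN replicate 2 (edgeR adjusted p = 0.0546, 0.104 and 0.0504). Between nanostructures Ryr1 passed (log2 0.46, SE 0.138, edgeR adjusted p = 0.0315), but not with limma voom (adjusted p = 0.0584), nor without any 1 Na+ ICN replicate or K+ ICN replicate 2 or 3 (edgeR adjusted p = 0.133, 0.0632, 0.0582, 0.133 and 0.232). The summed level of 7 skeletal and cardiac muscle markers was 17.2 to 19 CPM in PA, 12.3 to 20.1 with Na+ ICN and 11.4 to 15.9 with K+ ICN, with Myh7 holding most of it. Of these markers, Actc1 and Tnnt2 were at 0 in every PA and K+ ICN library, and Ckm reached at most 0.0547 CPM. The smooth muscle genes Acta2 and Tagln, named after their values were seen, had group means in the same order as Ryr1. The mural genes Rgs5 (means of 2.72, 4.07 and 3.99 CPM) and Myh11 (0.268, 0.657 and 0.437 CPM) did not, and both were highest with Na+ ICN. Acta2 had 32.8 ± 3.15 CPM in PA, 54.5 ± 3.42 with Na+ ICN and 68.1 ± 6.01 with K+ ICN, and Tagln 16.5 ± 0.248, 32 ± 2.64 and 38.4 ± 5.82 CPM, with its nanostructure groups overlapping. The part of the cells that express them in the Ryr1 rise was not tested. Genes on the other strand share 4.19% of the exon bases of Ryr1, and without a stated strand setting their reads cannot be told apart.

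Ryr2, the cardiac and neuronal ryanodine receptor, fell with Na+ ICN from 42 ± 1.94 to 34.2 ± 1.99 CPM (log2 -0.30, SE 0.0712, edgeR adjusted p = 0.0031). With K+ ICN it had 39.1 ± 1.54 CPM and passed neither against PA (edgeR adjusted p = 0.357) nor against Na+ ICN (log2 0.20, edgeR adjusted p = 0.0951). Ryr3 had 64.2 ± 3.02, 64 ± 3.66 and 63 ± 1.7 CPM, and its 3 intervals lay within -0.14 and 0.11. Per kilobase of transcript, Itpr1 made up 65.4% ± 0.322 of the summed release channel level in PA, 66.1% ± 0.631 with Na+ ICN and 57.9% ± 0.718 with K+ ICN. Ryr1 made up 2.02% ± 0.354, 2.98% ± 0.0707 and 4.81% ± 0.627. The summed level itself was 21.6 to 22.8 CPM per kilobase in PA, 20.6 to 22.6 with Na+ ICN and 18 to 19 with K+ ICN.

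Of 5 tested pump genes, 2 fell with Na+ ICN, where 5.22% of all tested genes fell, and 1 rose with K+ ICN, where 8.15% rose. Atp2a2 (SERCA2, chr5:122453513-122502225, minus strand) is the pump that refills the endoplasmic reticulum in most cells. It stood at 576, 577 and 594 CPM in PA, 524, 497 and 521 CPM with Na+ ICN and 631, 622 and 620 CPM with K+ ICN. The 3 groups did not overlap, with Na+ ICN lowest and K+ ICN highest. Relative to PA, Atp2a2 fell to 0.882 with Na+ ICN (log2 -0.18, SE 0.0281, edgeR adjusted p = 7.26e-06) and rose 1.07-fold with K+ ICN (log2 0.10, SE 0.0279, edgeR adjusted p = 0.00856, and 0.0525 without PA replicate 1). Between nanostructures it was 1.21-fold higher with K+ ICN (log2 0.28, SE 0.028, edgeR adjusted p = 2.28e-10).

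Atp2b2 (PMCA2, a fast plasma membrane pump of neurons and hair cells, chr6:113743831-114042613, minus strand) stood at 231, 235 and 231 CPM in PA, 214, 207 and 197 CPM with Na+ ICN and 252, 247 and 242 CPM with K+ ICN. The groups again had the order Na+ ICN, PA, K+ ICN without overlap. It fell with Na+ ICN (log2 -0.18, SE 0.0346, edgeR adjusted p = 3.41e-04) and was 1.2-fold higher in K+ than in Na+ ICN (log2 0.26, SE 0.0344, edgeR adjusted p = 2.03e-07). Against PA the K+ ICN value did not pass (log2 0.09, SE 0.0341, edgeR adjusted p = 0.071). Atp2b1 (PMCA1), the most abundant PMCA gene per kilobase, was higher in K+ than in Na+ ICN (580 ± 30 against 535 ± 5.73 CPM, log2 0.12, SE 0.0299, edgeR adjusted p = 0.00696). That call was lost without K+ ICN replicate 2 or 3 (edgeR adjusted p = 0.106 and 0.102). Atp2b3 and Atp2b4 passed nowhere, with log2 fold changes between -0.13 and 0.15. Over all 6 pump genes, the summed level was 221.6 to 226 CPM per kilobase in PA, 203.2 to 206.2 with Na+ ICN and 231.9 to 238.5 with K+ ICN.

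Of 5 store-operated entry genes, 1 passed with K+ ICN, a share near the 15.8% of all tested genes, and 0 passed in the other comparisons. Orai2, a channel subunit of that pathway, fell with K+ ICN from 58.3 ± 2.83 to 50.8 ± 1.72 CPM (log2 -0.20, SE 0.0617, edgeR adjusted p = 0.0193), but not without PA replicate 1 or 2 or K+ ICN replicate 2 (edgeR adjusted p = 0.0501, 0.117 and 0.101). The store sensors Stim1 and Stim2 and the channel subunits Orai1 and Orai3 passed nowhere. Their log2 fold changes lay between -0.17 and 0.32, and Orai1 and Orai3 were low, at 5.51 to 7.77 and 2.81 to 6.11 CPM.

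Mcu (chr10:59446984-59616692, minus strand), the pore of the mitochondrial uniporter, stood at 40.3, 36.3 and 38.3 CPM in PA, 43.7, 40.5 and 37.8 CPM with Na+ ICN and 32.3, 32.8 and 31.3 CPM with K+ ICN. The K+ ICN libraries were the 3 lowest, and the other groups overlapped. It was lower in K+ than in Na+ ICN (log2 -0.34, SE 0.0728, edgeR adjusted p = 0.00123). It also fell against PA (log2 -0.25, SE 0.0727, edgeR adjusted p = 0.0115), a call lost without PA replicate 1 or K+ ICN replicate 3 (edgeR adjusted p = 0.0827 and 0.0511). The promoter window of Mcu is shown as the other member window with AP-1 letters. It is the RefSeq GRCm38.p6 window at chr10:59616643-59616942, minus strand, with capitals for TGANTCA and for GGAAA or its reverse.
Mcu: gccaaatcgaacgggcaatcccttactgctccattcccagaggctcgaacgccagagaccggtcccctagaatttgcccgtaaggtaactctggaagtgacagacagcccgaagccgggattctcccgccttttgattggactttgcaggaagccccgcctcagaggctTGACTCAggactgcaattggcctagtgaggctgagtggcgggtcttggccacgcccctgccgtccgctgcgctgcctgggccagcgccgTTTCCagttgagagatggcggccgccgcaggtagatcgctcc

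TRPC channels included the steepest falls among the members. Trpc5 (chrX:144381671-144688180, minus strand), a cation channel of growth cones and cortical neurons, stood at 19.1, 20.6 and 20.4 CPM in PA, 14.6, 13.7 and 13.2 CPM with Na+ ICN and 12.4, 11 and 10.6 CPM with K+ ICN. No library of one group reached the range of another. With K+ ICN it fell to 0.566 of its mean in PA (log2 fold change -0.82, SE 0.106, edgeR adjusted p = 5.86e-08) and to 0.69 with Na+ ICN (log2 -0.54, SE 0.105, edgeR adjusted p = 3.01e-04). The difference between nanostructures did not pass (log2 -0.28, SE 0.109, edgeR adjusted p = 0.119). Trpc4 (chr3:54156035-54318471, plus strand), which can form channels together with Trpc5, stood at 24.3, 25 and 26.7 CPM in PA, 20, 19.3 and 19.4 CPM with Na+ ICN and 18.8, 18.6 and 15.9 CPM with K+ ICN. The order of the groups was the same, again without overlap. With K+ ICN it fell to 0.701 of its mean in PA (log2 fold change -0.51, SE 0.0898, edgeR adjusted p = 2.77e-05) and to 0.771 with Na+ ICN (log2 -0.37, SE 0.09, edgeR adjusted p = 0.00351). Between nanostructures the 95% interval of Trpc4 was -0.32 to 0.05 on the log2 scale. All 4 calls against PA were kept in all 17 alternatives.

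The related Trpc1, a widely expressed subunit of the family, had 32.4 ± 0.959, 30.3 ± 1.19 and 29.2 ± 0.633 CPM and passed nowhere. Trpc6 was barely detected, at 0.818 to 2.37 CPM, and did not pass (K+ ICN against PA log2 0.97, SE 0.38, edgeR adjusted p = 0.077). Per kilobase, the summed level of the 4 TRPC genes was 19.2 to 19.9 CPM in PA, 15.7 to 16.1 with Na+ ICN and 14.2 to 15.5 with K+ ICN. Trpc5 made up 24.7% ± 0.781, 20.8% ± 1.06 and 18.4% ± 0.733 of that sum (SD, n = 3). The 2 promoter windows are shown side by side because Trpc4 and Trpc5 fell together; both come from RefSeq GRCm38.p6, at chr3:54155807-54156106 on the plus strand and chrX:144688131-144688430 on the minus strand. Each holds 1 NFAT core, printed in capitals as its reverse, and neither holds the AP-1, CRE or MEF2 letters.
Trpc4: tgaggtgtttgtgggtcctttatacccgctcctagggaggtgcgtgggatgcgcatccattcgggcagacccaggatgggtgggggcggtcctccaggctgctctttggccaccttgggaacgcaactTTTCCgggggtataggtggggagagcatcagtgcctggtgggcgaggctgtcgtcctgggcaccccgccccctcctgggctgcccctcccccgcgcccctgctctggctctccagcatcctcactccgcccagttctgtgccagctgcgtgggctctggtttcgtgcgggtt
Trpc5: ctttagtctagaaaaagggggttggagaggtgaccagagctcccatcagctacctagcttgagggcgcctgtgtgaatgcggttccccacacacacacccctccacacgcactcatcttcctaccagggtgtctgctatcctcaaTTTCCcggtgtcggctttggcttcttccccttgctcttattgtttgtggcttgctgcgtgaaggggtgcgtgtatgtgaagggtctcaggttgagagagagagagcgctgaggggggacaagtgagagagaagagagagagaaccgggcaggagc

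**Figure D3:**
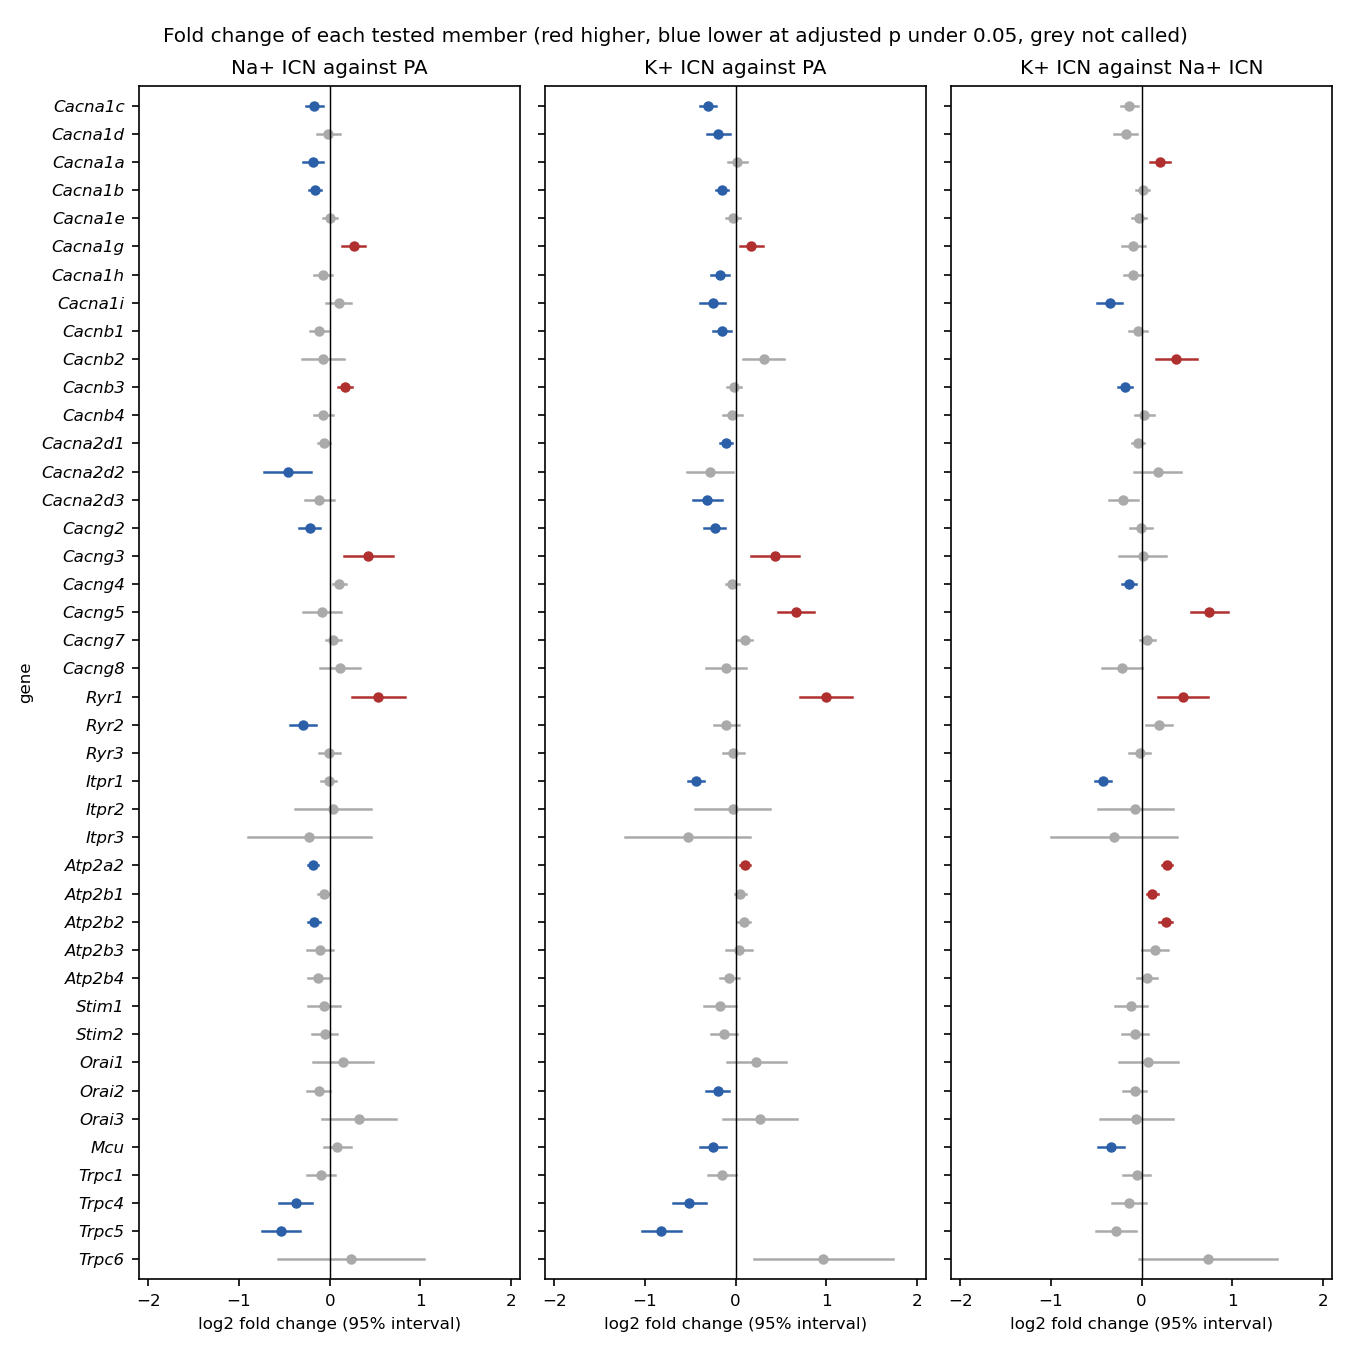
Log2 fold change of each of the 42 tested members in the 3 comparisons, with 95% intervals; red points were higher and blue points lower at an adjusted p under 0.05, and grey points did not pass. Most intervals lie within -0.5 and 0.5. Ryr1 (0.996), Cacng5 (0.66), Trpc5 (-0.82) and Trpc4 (-0.51) passed with K+ ICN with fold changes outside that range. Trpc6 (0.97) and Itpr3 (-0.53) lie outside it without passing. Atp2a2 and Atp2b2 lie on opposite sides of 0 with the 2 nanostructures, and Atp2b2 did not pass with K+ ICN against PA. Other members, among them Cacna1i, Cacng4 and Mcu, lie on opposite sides too.

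Short motifs bound by calcium- and activity-regulated factors were counted in windows from 250 bases before to 50 bases after each RefSeq start, on both strands. Of the members, 35 had a window, 47 windows in all; those of Cacna1a, Cacna1g, Cacna1h, Cacng4, Ryr3, Itpr1, Atp2a2 and Atp2b3 were not used here. The CRE core TGACG was in 12 of 47 member windows, where 29.4% of the 15099 windows of tested genes hold it. The AP-1 letters TGANTCA were in 2 (Cacng5 and Mcu, above), where 4.79% hold them, and the MEF2 letters AAAATAG were in 0, where 2.68% hold them. The NFAT core GGAAA was in 21 (58.2% of all windows) and the E-box CANNTG in 32 (64.2%). Each motif was counted by itself, so matches of different motifs may overlap, and a match describes the letters and not a bound site.

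Levels per kilobase of the longest annotated transcript set genes beside each other only roughly, because the transcripts that these cells use were not measured. The SD covers the spread between libraries and not the uncertainty of the length. This limit holds for every rank, sum and share per kilobase given here and above. In PA, Atp2a2 was the highest member at 103 ± 1.8 CPM per kilobase, followed by Atp2b1 at 78.5 ± 0.654, Cacng4 at 70.6 ± 1.71, Cacng7 at 54.2 ± 1.1 and Cacnb3 at 53 ± 2.2, of which the last 2 overlapped within their SD. Among pores Cacna1b was highest at 24.2 ± 0.208, followed by Cacna1h at 12.3 ± 0.451, and Cacna1e, Cacna1a and Cacna1c lay at 10.2 ± 0.0837, 9.6 ± 0.527 and 9.19 ± 0.313, of which neighbours overlapped within their SD. Cacna1g, Cacna1d and Cacna1i followed at 6.4 ± 0.636, 5.39 ± 0.136 and 4.17 ± 0.0849 CPM per kilobase. The 8 pores summed to 80.6 to 83 CPM per kilobase in PA, 77.2 to 78 with Na+ ICN and 74 to 76.5 with K+ ICN, without overlap. Of the release channels, Itpr1 at 14.6 ± 0.416 stood above Ryr3 at 4.15 ± 0.195 and Ryr2 at 2.5 ± 0.115, and Ryr1 rose from 0.451 ± 0.0867 in PA to 0.899 ± 0.141 with K+ ICN and so remained below both.

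**Figure D4:**
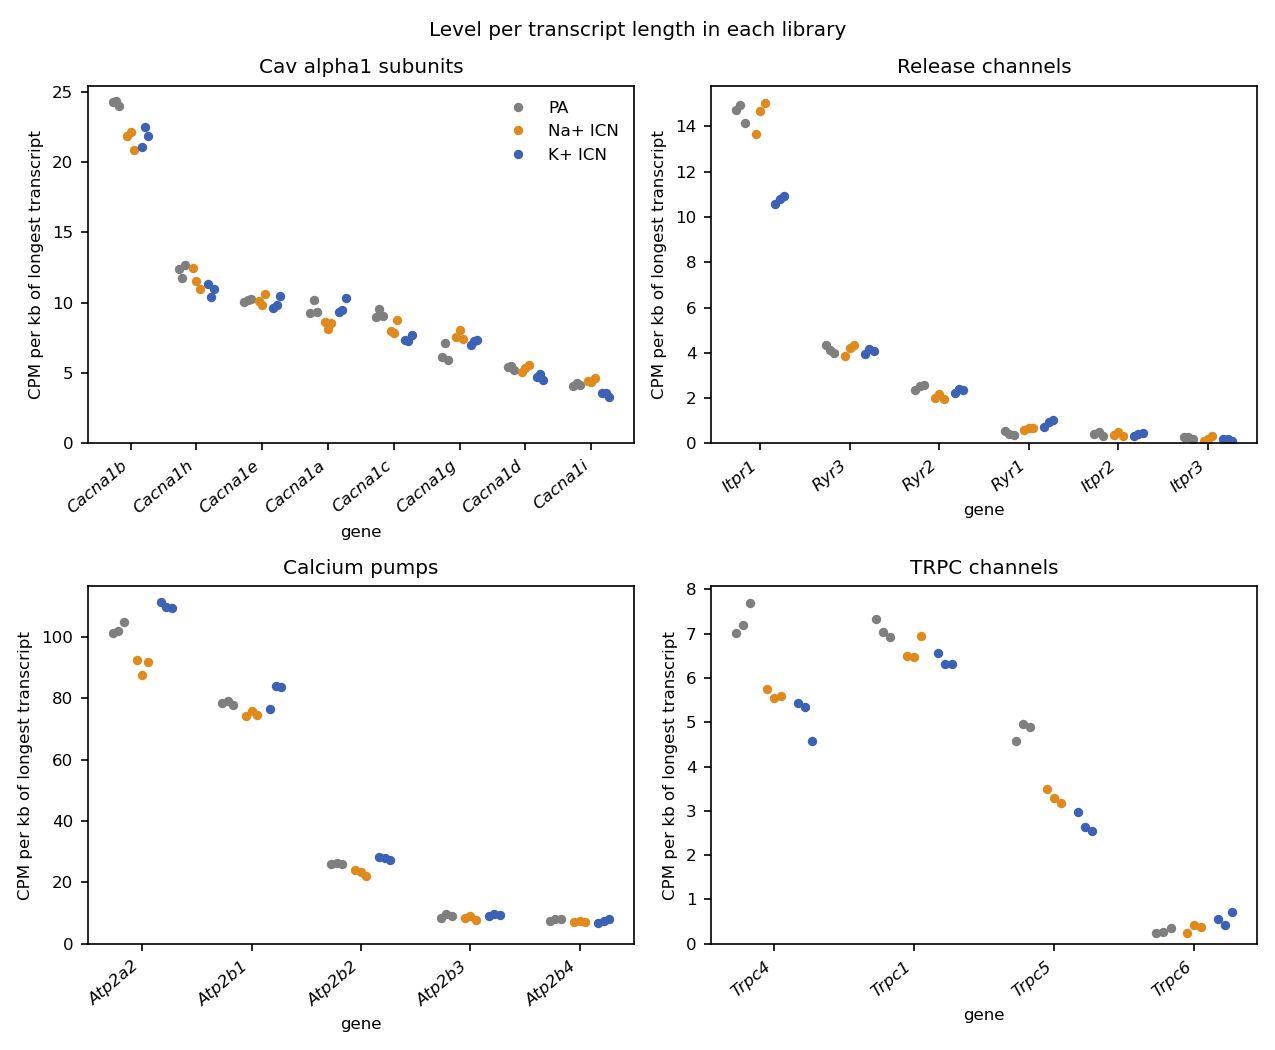
CPM per kilobase of the longest transcript in each library (points, coloured by group) for the pores, release channels, pumps and TRPC channels, with genes ordered from left to right by level. Cacna1b, Itpr1 and Atp2a2 lead their panels at 24.2, 14.6 and 103 CPM per kilobase on average in PA, while the Trpc4 and Trpc5 points of both nanostructure groups lie below those of PA.

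Genes that act with these channels were counted from lists of 78 further symbols, of which 68 were tested. These lists too were chosen with earlier results of these data known, so their shares do not test an excess over all genes. With Na+ ICN 12 changed, 4 higher and 8 lower (17.6%, where 10.9% of all genes changed), with K+ ICN 24, 8 higher and 16 lower (35.3%, where 15.8% did), and between nanostructures 9, 5 higher and 4 lower in K+ (13.2%, where 6.58% did). The buffer protein gene Calb1 fell with Na+ ICN (log2 -0.37, SE 0.0747, edgeR adjusted p = 4.76e-04) and K+ ICN (log2 -0.45, SE 0.0743, edgeR adjusted p = 1.20e-05). Ppp3r1, the regulatory subunit of calcineurin, fell with Na+ ICN (log2 -0.15, SE 0.0331, edgeR adjusted p = 0.00128) and K+ ICN (log2 -0.12, SE 0.0329, edgeR adjusted p = 0.00704, and 0.0506 without K+ ICN replicate 2).

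Calmodulin-dependent kinase genes moved in different directions. Camk1d rose with K+ ICN from 68.7 ± 2.1 to 94.6 ± 5.42 CPM (log2 0.46, SE 0.0559, edgeR adjusted p = 3.40e-08), and Camk1 rose with Na+ ICN (log2 0.42, SE 0.086, edgeR adjusted p = 5.85e-04) and K+ ICN (log2 0.42, SE 0.0852, edgeR adjusted p = 2.43e-04). Camkk2, their upstream kinase, fell with K+ ICN from 121 ± 4.55 to 98.5 ± 1.58 CPM (log2 -0.29, SE 0.0423, edgeR adjusted p = 8.22e-07), as did the nuclear kinase gene Camk4 (log2 -0.26, SE 0.0411, edgeR adjusted p = 3.37e-06). Camk4 also fell with Na+ ICN (log2 -0.17, SE 0.0412, edgeR adjusted p = 0.0045, and 0.0533 without PA replicate 2). Its K+ against Na+ difference did not pass (edgeR adjusted p = 0.181). In K+ against Na+ ICN, Camk1d was higher (log2 0.35, SE 0.0559, edgeR adjusted p = 1.33e-05) and Camkk2 lower (log2 -0.27, SE 0.0425, edgeR adjusted p = 1.13e-05). Jph4, a junctophilin that holds the endoplasmic reticulum to the plasma membrane in neurons, fell with K+ ICN from 382 ± 8.44 to 324 ± 11.6 CPM (log2 -0.24, SE 0.0323, edgeR adjusted p = 2.59e-07). Its value with Na+ ICN was 383 ± 15 CPM, and the K+ against Na+ difference passed (log2 -0.24, SE 0.0324, edgeR adjusted p = 4.41e-07). Of 5 tested genes for RGK and Stac proteins, which regulate Cav channels at the membrane, 3 were higher with K+ ICN, where 8.15% of all tested genes were. Stac had 7.53 ± 1.2 CPM in PA and 13.9 ± 2.01 CPM with K+ ICN (log2 0.88, SE 0.138, edgeR adjusted p = 4.07e-06), Rem2 8.46 ± 0.887 and 14.1 ± 0.754 CPM, and Stac2 13.8 ± 1.82 and 20.7 ± 0.361 CPM. These 3, named after their values were seen, also passed with Na+ ICN (edgeR adjusted p = 0.0111, 0.0492 and 0.00466 for Stac, Rem2 and Stac2). The Na+ ICN call of Stac was lost without PA replicate 1 or Na+ ICN replicate 2 (edgeR adjusted p = 0.106 and 0.0848), that of Stac2 without PA replicate 2 (edgeR adjusted p = 0.0625), and that of Rem2 in 13 of 17 alternatives (adjusted p up to 0.25).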

How the data were processed

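Whole-number counts per gene symbol were deposited by the authors for 9 libraries of polyadenylated RNA, read from one end of stranded libraries. Trim Galore, STAR and RSEM with the mouse build GRCm38 are named per the submitters' processing notes, without versions. None of the sources used here gives the annotation, the strand setting, or whether the counts are STAR counts or rounded RSEM estimates. In total, 14 of the 43 members share exon bases with a gene on the other strand, and their values are uncertain to that extent. The counts had no rows without a name, and no value column was left out.

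Tests used edgeR 4.0.16 (R 4.3.3) on the 15183 genes that filterByExpr kept at a count minimum of 10; these hold 99.9% of all counts. TMM factors scaled the libraries, CPM were taken on the scaled sizes, and a robust quasi-likelihood model with the group as its only term was fitted to all 9 libraries. Replicates varied by 5.67% (biological coefficient of variation from the common dispersion). Standard errors follow from the log2 fold change and its F value. Replicates differed by more than counting noise (chi-square per degree of freedom 3.23 to 4.18). The fit was tested on simulated data, with changes placed in genes of all levels. It recovered 31.3%, 31.8% and 26% of 1.2-fold changes and 89.5%, 75.9% and 78% of 2-fold changes in the 3 comparisons. Changes were placed in far fewer genes than were called in the data, and each rate rests on 54 to 83 genes. The rates are thus not those of the members. A member that did not pass may still differ by a small fold. Members and lists were chosen with earlier results of these data known. Each member that passed in at least 1 comparison is described, the 12 with the smallest p by library, and of the other calcium genes the 4 with the smallest p in each comparison, except 1 gene that is not reported here. Lengths, positions and exon overlaps are from GENCODE on GRCm38, and promoter windows from RefSeq on GRCm38.p6. Protein sequences were not used here. Alternatives were DESeq2 size factors, upper-quartile scaling, DESeq2 1.42.0, limma voom 3.58.1, testing without a filter or with one of at least 1 CPM in 3 libraries, fitting only the 6 libraries of a comparison, a term for the replicate number, and leaving out each library.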

Additional observations from a re-analysis of the deposited data

How the results depend on the processing

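No value that passed its test, before or after a change of setting, reversed its direction. With a library left out, the count of members called ranged from 9 to 15 for Na+ ICN against PA, from 13 to 20 for K+ ICN against PA and from 8 to 12 for K+ against Na+ ICN. The higher calls ranged from 2 to 5, 2 to 6 and 3 to 7 and the lower calls from 7 to 10, 9 to 14 and 4 to 7 in the same order. The other settings gave 14 to 15, 18 to 21 and 11 to 13. Of the calls, 8 of 14, 9 of 19 and 7 of 12 were kept under all 17 alternatives. Each member was also counted in each comparison under each alternative, so a call lost under several alternatives was counted several times. In that count, 63 values lost their call, 20 gained a call and 2057 kept their side of the threshold. The cause of the lost calls was not tested. A term for the replicate number gave 15, 21 and 13 calls. Over all tested genes that term gave 1825, 2612 and 1165 calls, against 1648, 2403 and 999 without it. Same-numbered libraries of different groups had correlations of -0.02 to 0.05 in their deviations from the group mean, and other pairs -0.04 to 0.04. Such weak correlations cannot show whether the numbers pair the cultures. The same alternatives for the other calcium genes were chosen after seeing the data, and gave 8 to 14, 16 to 25 and 8 to 11 calls. Members under about 5 CPM (Itpr2, Itpr3, Orai3 and Trpc6) have the widest intervals, for Trpc6 from 0.20 to 1.73 with K+ ICN against PA, and small changes in them were not detectable at this depth.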
